A study of Mus musculus with 12 samples.

Results

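The hepcidin gene and 9 genes of the BMP-SMAD pathway, which drives its transcription, were followed in bone marrow-derived macrophages given hepcidin or PBS. They are Hamp itself, the BMP response genes Id1, Id2 and Id3, the inhibitory SMAD genes Smad6 and Smad7, the receptor genes Bmpr1a and Bmpr2, and the signal transducer genes Smad1 and Smad4. All 10 were matched by symbol, each to 1 probe set, among the 24675 named genes of the array. The cells were primary macrophages of WT mice aged 8 to 10 weeks, whose strain and sex the labels do not give, grown from marrow for 7 days with L cell-conditioned medium as the source of M-CSF. All cells then stood for 1 h in DMEM without that medium before hepcidin was added. The 12 arrays form 4 groups of 3: hepcidin for 3 h, PBS for 3 h, hepcidin for 1 h and PBS for 1 h. The hepcidin dose is 1 µg/ml in one protocol of the labels, which gives both times, and 10 µg/ml in another, which gives 1 h alone, so it is not settled which applies. The labels do not tell whether the 3 arrays of a group stem from different mice or dishes, so the p-values rest on array-to-array spread that may be purely technical.

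Hepcidin is the peptide hormone that lowers iron export from cells by binding ferroportin, and its gene is transcribed mainly in hepatocytes. There, BMP ligands bind type I and type II receptors, the receptors phosphorylate SMAD1, SMAD5 and SMAD8, and these enter the nucleus with SMAD4 and switch on Hamp. The same complex induces the Id genes, whose products block basic helix-loop-helix transcription factors, and Smad6 and Smad7, whose products feed back to damp the signal. Interleukin-6 acts on Hamp through STAT3, a second route used in inflammation. Id genes also answer signals other than BMP. The peptide was added from outside, so Hamp on the array reports the cells' own transcript.

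Hamp carries the known elements of both routes, and Id3 is the response gene that changed with hepcidin. Id2 is a response gene that did not pass in the main fit, which pairs no arrays. The upstream sequences of these 3 genes are therefore shown. Each holds the 250 bases before the RefSeq start in assembly GRCm38.p6, 5′ to 3′ on the gene's strand, at chr7:30944030-30944279 on the minus strand for Hamp, chr4:136143572-136143821 on the plus strand for Id3 and chr12:25096093-25096342 on the minus strand for Id2. Capitals mark the BMP-responsive core GGCGCC and the STAT motif TTCNNNGAA.
Hamp: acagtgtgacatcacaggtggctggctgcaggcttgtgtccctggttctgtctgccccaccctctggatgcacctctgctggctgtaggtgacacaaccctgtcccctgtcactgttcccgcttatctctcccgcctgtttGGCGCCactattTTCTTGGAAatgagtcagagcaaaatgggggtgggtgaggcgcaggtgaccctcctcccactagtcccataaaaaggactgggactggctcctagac
Id3: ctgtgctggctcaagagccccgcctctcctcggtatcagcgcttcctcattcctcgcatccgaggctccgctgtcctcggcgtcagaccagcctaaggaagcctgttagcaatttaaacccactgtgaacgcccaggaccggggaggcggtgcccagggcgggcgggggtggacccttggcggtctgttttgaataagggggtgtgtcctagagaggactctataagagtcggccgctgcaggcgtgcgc
Id2: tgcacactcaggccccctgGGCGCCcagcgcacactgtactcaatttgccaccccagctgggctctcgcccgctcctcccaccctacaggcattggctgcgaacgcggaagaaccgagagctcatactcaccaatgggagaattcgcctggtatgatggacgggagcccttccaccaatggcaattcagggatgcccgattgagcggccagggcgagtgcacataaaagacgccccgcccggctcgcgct
In Hamp the BMP-responsive core lay at -109 to -104 and the STAT motif at -97 to -89 from the start. In Id2 the core GGCGCC lay at -231 to -226, and these 250 bases of Id3 held neither motif. The SMAD palindrome GTCTAGAC was in none of the 3. All 3 motifs read the same on both strands and did not overlap each other. Of the 32851 upstream sequences of this length, 9.59% held GGCGCC, 7.02% held TTCNNNGAA and 0.167% held GTCTAGAC. The search covered 7 of the 10 genes and only these 250 bases, so elements farther from the start were not sought. Id1 had no entry, and Smad4 and Smad7 were not searched because entries on their chromosome were left out. Of the other genes searched, Smad6 and Smad1 held none of these motifs, Bmpr1a held GGCGCC at -198 to -193 and Bmpr2 at -105 to -100.

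The macrophage label was met by the markers: all 9 macrophage markers measured lay above the background level, led by Cd68 (mean over all arrays 12.99 on the log2 scale) and Adgre1 (11.67). Background was judged from 1088 olfactory receptor genes, which serve smell and are not expected here. Their 95th percentile was 4.72, a rough guide because probes differ in brightness, and 52.5% of all genes lay above it. None of 10 hepatocyte markers (Apoa1 at 4.57 and Hpx at 4.47 the brightest) and none of 7 lymphocyte markers (Ncr1 3.96, Cd4 3.68) passed that level. It was passed by 3 of 9 endothelial markers (Vwf 6.74, Kdr 6.09) and 4 of 9 stromal ones (Col1a1 6.06, Col1a2 5.27). It was also passed by 4 of 10 neutrophil markers (Mpo 5.42, Elane 5.29), 2 of 8 dendritic cell markers (Itgax 7.19, Ccr7 4.82) and 1 of 6 erythroid markers (Epor 4.73, Slc4a1 4.18). Array medians were 4.84 to 4.94 and arrays of a group correlated at r = 0.994 to 0.997 across probe sets. The number of arrays, 3 a group, limits the precision.

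Of the 10 genes, 1 rose and 1 fell with hepcidin at 3 h, where 2.80% of all genes rose and 2.53% fell, 5.33% together. The gene that rose was Id3 and the gene that fell was Smad7. At 1 h 1 rose, again Id3, and 0 fell, where 0.527% of all genes rose and 0.0324% fell, 0.559% together. The hepcidin and PBS groups did not overlap at 3 h in 1 gene that was higher and 1 that was lower, against 11.8% and 9.90% of all genes (21.7% together). At 1 h they did not overlap in 4 that were higher (Id1, Id3, Smad6 and Smad4) and 1 that was lower (Smad7), against 6.47% and 5.86% of all genes (12.3% together). Id1 and Smad4 were apart at 1 h by narrow margins. The lowest hepcidin and highest PBS values were 4.7741 and 4.7737 for Id1, and 9.65 and 9.64 for Smad4. Smad6 and most values of Smad7 lay under the background level. The median log2 change of the 10 was 0.09 at 3 h and 0.10 at 1 h, beside 0.02 and 0.00 for all genes.

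Hamp lay below the background level on every array. Its log2 values were 2.39, 3.07 and 2.84 with hepcidin at 3 h, against 2.63, 2.69 and 2.91 with PBS at 3 h. At 1 h they were 2.65, 2.89 and 2.57 with hepcidin, against 2.91, 2.83 and 2.69 with PBS. The groups overlapped at both times, and the mean of 2.76 stood at the 3.99 percentile of all genes and the 25.0 percentile of the olfactory receptor genes. The log2 difference was 0.02 at 3 h (95% interval -0.30 to 0.35, adjusted p = 0.962 in limma) and -0.10 at 1 h (-0.43 to 0.22, adjusted p = 0.959). Values at this level mix signal and background, so a change of a rare transcript could have gone undetected.

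Id3, the gene of an inhibitor of basic helix-loop-helix factors, was higher with hepcidin at both times. At 3 h its log2 values were 5.58, 6.00 and 5.98 with hepcidin, against 4.79, 5.08 and 4.86 with PBS. At 1 h they were 6.78, 6.57 and 6.69 with hepcidin, against 5.59, 5.76 and 6.13 with PBS. At each time all 3 hepcidin arrays lay above all 3 PBS arrays. The rise was 0.94 on the log2 scale at 3 h (SE 0.14, 1.92-fold, adjusted p = 0.00162 in limma) and 0.85 at 1 h (SE 0.14, 1.80-fold, adjusted p = 0.0162). The effect at 3 h minus that at 1 h was 0.09 (95% interval -0.35 to 0.54, adjusted p = 0.930). The call at 3 h held whichever array was left out. The call at 1 h was lost when hepcidin 1 h replicate 1 (adjusted p = 0.0840) or 3 (0.0744), or PBS 1 h replicate 1 (0.0981) or 2 (0.0909), was left out, at log2 changes from 0.74 to 1.00 over all left-out arrays, and also without moderation (0.130) or with only those groups in the fit (0.0516). Of 59 markers of other cell types, 0 passed with hepcidin at either time in limma, beside 5.33% of all genes at 3 h and 0.559% at 1 h. At an unadjusted p under 0.05 were 5 at 3 h and 4 at 1 h, beside 16.9% and 6.82% of all genes. Most of the 59 lay under the background level, which 52.5% of all genes passed, so these shares are not a like comparison. Of the 9 macrophage markers 2 rose and 2 fell at 3 h, where 2.80% and 2.53% of all genes did. The part of these markers in the rise of Id3 was not tested.

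**Figure D1:**
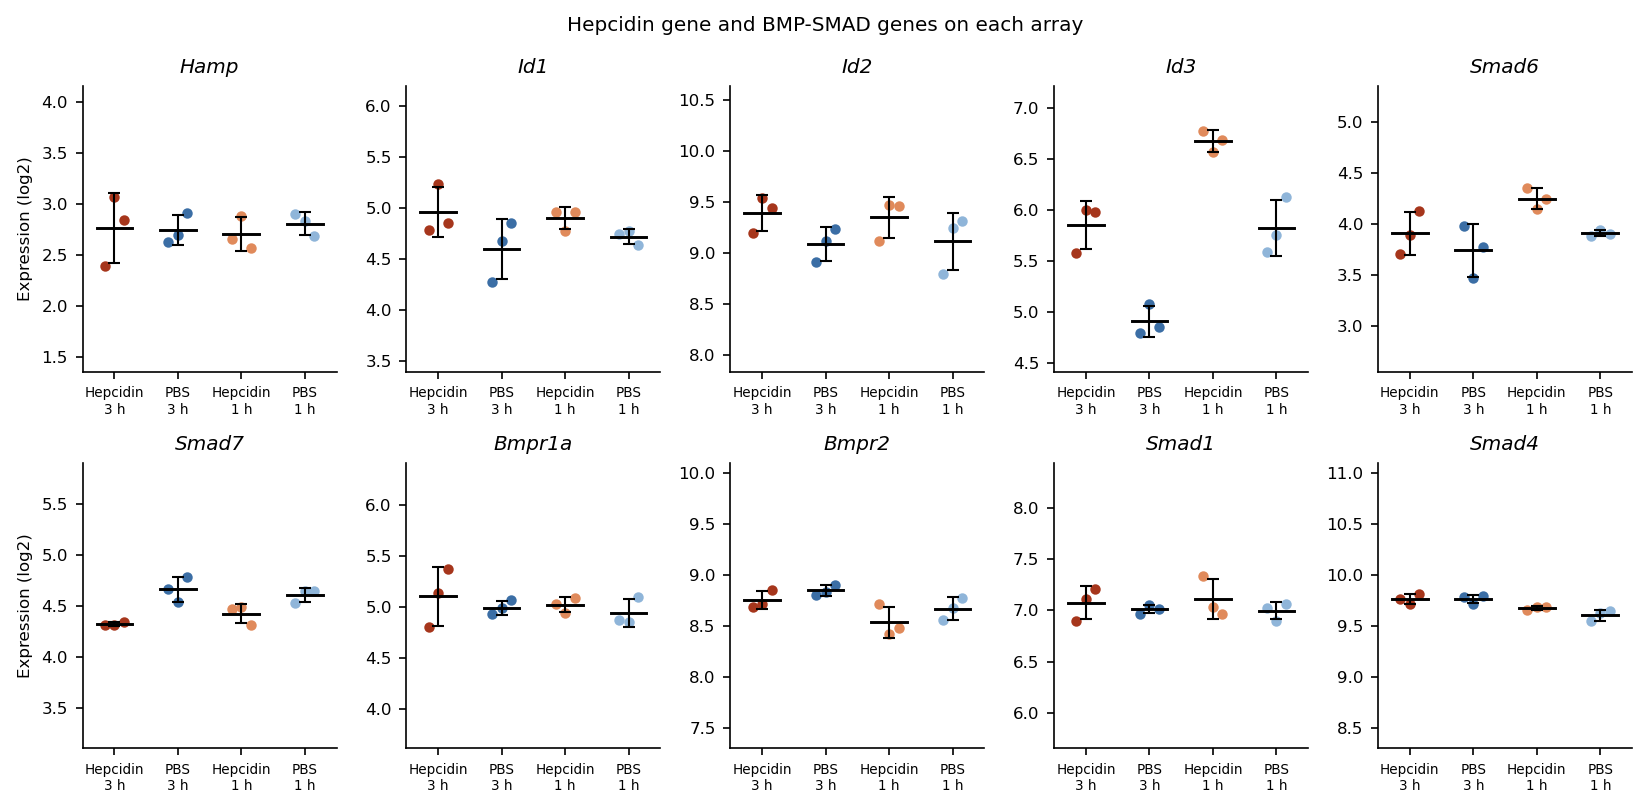
Log2 expression of the 10 genes on each of the 12 arrays, with hepcidin and PBS at 3 h and then at 1 h from left to right; points are arrays, wide bars group means and error bars the SD of 3 arrays, and every panel spans the same log2 range around the gene's mean. Id3 stands at 6.57 to 6.78 in the hepcidin 1 h group and at 4.79 to 5.08 in the PBS 3 h group, while Hamp stays between 2.39 and 3.07.

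Id3 was also lower at 3 h than at 1 h, with and without hepcidin. In PBS it averaged 4.91 ± 0.15 at 3 h and 5.83 ± 0.27 at 1 h (SD, n = 3 arrays each), a fall of 0.92 on the log2 scale (SE 0.14, adjusted p = 0.0211 in limma). With hepcidin it averaged 5.85 ± 0.24 at 3 h and 6.68 ± 0.10 at 1 h, a fall of 0.82 (SE 0.14, adjusted p = 0.00515 in limma). The order was therefore hepcidin 1 h, hepcidin 3 h, PBS 1 h and PBS 3 h. Its middle pair overlapped, at 5.58 to 6.00 with hepcidin at 3 h and 5.59 to 6.13 with PBS at 1 h. These comparisons share arrays with the hepcidin effects. The call in PBS was lost when PBS 3 h replicate 1 (adjusted p = 0.103) or 3 (0.103), or PBS 1 h replicate 2 (0.0786) or 3 (0.0663), was left out, without moderation (0.0681) and with only those groups in the fit (0.0736), and the call with hepcidin held whichever array was left out. Between the times, 0.450% of all genes passed in PBS and 5.05% with hepcidin. Kdr, an endothelial receptor gene, was the 1 of 9 endothelial markers that passed between the times, falling by 0.77 in PBS (adjusted p = 0.00989 in limma) and by 1.19 with hepcidin (adjusted p = 4.36e-05). The mean level of that list ran from 4.40 to 4.49 with PBS at 3 h and from 4.50 to 4.52 with PBS at 1 h. With hepcidin it ran from 4.37 to 4.42 at 3 h and from 4.45 to 4.55 at 1 h. Over the same times with hepcidin, the neutrophil enzyme gene Mpo fell by 0.62 (adjusted p = 0.0274), 1 of 10 neutrophil markers to pass. That list's mean ran from 4.27 to 4.37 with hepcidin at 3 h and from 4.25 to 4.59 with hepcidin at 1 h. Of the 9 macrophage markers, 2 rose (Cd14 and Spi1) and 3 fell (Mertk, Fcgr1 and Mrc1) over time with hepcidin, by log2 changes from -1.28 to 0.71, where 5.05% of all genes passed. In PBS 0 of them passed in limma, with 1 at an unadjusted p under 0.05, beside 0.450% and 10.6% of all genes. Their mean ran from 10.79 to 10.92 with hepcidin at 3 h and from 10.88 to 10.97 with hepcidin at 1 h. These macrophage markers are named after their values were seen. The part of these markers in the fall of Id3 was not tested. In bulk RNA, fewer cells of a type and less RNA per cell cannot be told apart.

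Id1 and Id2, the paralogs of Id3, had higher means with hepcidin at both times. Neither passed in the main fit, which pairs no arrays. Id1 had log2 values of 4.78, 5.23 and 4.85 with hepcidin at 3 h, against 4.27, 4.67 and 4.85 with PBS at 3 h. The values at 1 h were 4.96, 4.77 and 4.96 with hepcidin, against 4.74, 4.77 and 4.63 with PBS. The groups overlapped at 3 h, and at 1 h the lowest hepcidin value and the highest PBS value were the same to the digits given. Of the 12 values, 9 lay above the background level. Its log2 difference was 0.36 at 3 h (95% interval 0.05 to 0.67, adjusted p = 0.215 in limma) and 0.18 at 1 h (-0.13 to 0.49, adjusted p = 0.903). Id2 was bright, with 9.20, 9.54 and 9.44 with hepcidin at 3 h, against 8.91, 9.12 and 9.23 with PBS at 3 h. Those at 1 h were 9.11, 9.47 and 9.46 with hepcidin, against 8.79, 9.24 and 9.31 with PBS. The groups of Id2 overlapped at both times. Its log2 difference was 0.30 at 3 h (-0.02 to 0.63, adjusted p = 0.342) and 0.23 at 1 h (-0.09 to 0.56, adjusted p = 0.862). The upper ends of these intervals run from 0.49 to 0.67.

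Of the inhibitory SMAD genes, Smad7 was lower with hepcidin at 3 h and Smad6 did not pass. Smad7, whose product blocks receptors of the whole TGF-beta family, had log2 values of 4.32, 4.31 and 4.35 with hepcidin at 3 h, against 4.67, 4.54 and 4.78 with PBS at 3 h. At 1 h it had 4.47, 4.49 and 4.32 with hepcidin, against 4.53, 4.65 and 4.64 with PBS. The hepcidin arrays lay below the PBS arrays at each time. It fell by 0.34 on the log2 scale at 3 h (SE 0.08, adjusted p = 0.0240 in limma), and at 1 h the difference was -0.18 (95% interval -0.35 to -0.02, adjusted p = 0.697). Of its 12 values 11 lay under the background level of 4.72, where signal and background mix, so no fold is given. The call at 3 h was lost when any 1 of the hepcidin 3 h arrays (adjusted p = 0.0613, 0.0662 and 0.0608 without replicate 1, 2 and 3), PBS 3 h replicate 1 (0.0713) or PBS 3 h replicate 3 (0.116) was left out, at log2 changes from -0.40 to -0.28, and with only those groups in the fit (0.0849).

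Smad6, whose product acts more narrowly on the BMP receptors, lay under the background level on all 12 arrays. Its values were 3.71, 3.89 and 4.13 with hepcidin at 3 h, against 3.99, 3.47 and 3.78 with PBS at 3 h. At 1 h they were 4.36, 4.15 and 4.25 with hepcidin, against 3.89, 3.94 and 3.91 with PBS. The groups overlapped at 3 h and did not at 1 h. The log2 difference was 0.17 at 3 h (95% interval -0.11 to 0.45, adjusted p = 0.582 in limma) and 0.34 at 1 h (0.06 to 0.62, adjusted p = 0.627).

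The receptor genes did not pass at either time. Bmpr2, the type II BMP receptor, averaged 8.75 ± 0.09 with hepcidin and 8.85 ± 0.05 with PBS at 3 h, and 8.53 ± 0.16 with hepcidin and 8.67 ± 0.11 with PBS at 1 h (SD, n = 3 arrays each). Its log2 difference was -0.10 at 3 h (95% interval -0.29 to 0.10) and -0.14 at 1 h (-0.33 to 0.06). Bmpr1a, a type I receptor, was dim but above background on all arrays. It averaged 5.10 ± 0.29 with hepcidin and 4.99 ± 0.07 with PBS at 3 h, and 5.02 ± 0.07 with hepcidin and 4.94 ± 0.14 with PBS at 1 h. Its log2 difference was 0.11 at 3 h (-0.16 to 0.38) and 0.08 at 1 h (-0.19 to 0.35). The widest spread was that of the hepcidin 3 h arrays, 4.80, 5.14 and 5.37.

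The signal transducer genes did not pass at either time. Smad4, the shared partner of all receptor-regulated SMADs, averaged 9.77 ± 0.05 with hepcidin and 9.76 ± 0.04 with PBS at 3 h, a difference of 0.00 (95% interval -0.13 to 0.13). At 1 h it averaged 9.67 ± 0.02 with hepcidin and 9.60 ± 0.05 with PBS, a difference of 0.07 (-0.06 to 0.20). Smad1, a SMAD phosphorylated by BMP receptors, averaged 7.08 ± 0.16 with hepcidin and 7.01 ± 0.04 with PBS at 3 h, a difference of 0.06 (-0.16 to 0.29). At 1 h it averaged 7.11 ± 0.20 with hepcidin and 7.00 ± 0.08 with PBS, a difference of 0.12 (-0.11 to 0.34).

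**Figure D2:**
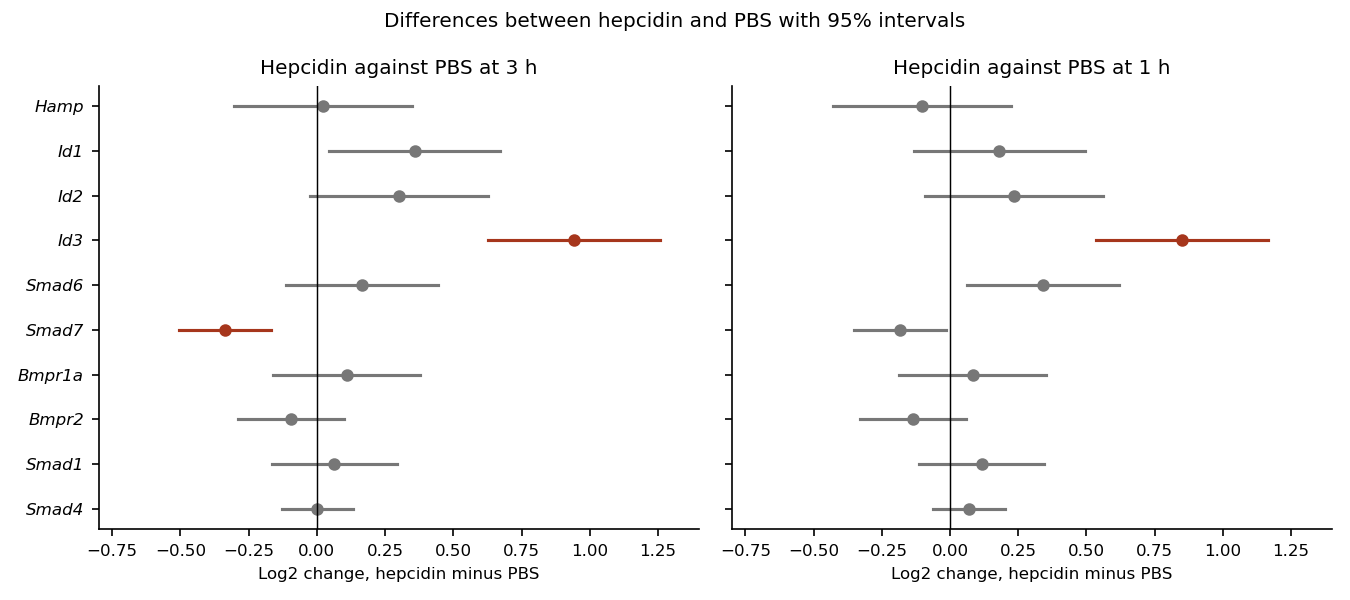
Log2 change, hepcidin minus PBS, of each of the 10 genes at 3 h (left) and 1 h (right); points are limma estimates, bars their 95% intervals, and red marks genes past an adjusted p of 0.05 over all genes. Id3 is past it at both times, at 0.94 and 0.85, and Smad7 at 3 h, at -0.34.

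In the average of both hepcidin effects, taken after the data had been seen, Id3 rose by 0.90 (SE 0.10, adjusted p = 1.78e-04 in limma) and Smad7 fell by 0.26 (SE 0.05, adjusted p = 0.0173), while 4.00% of all genes passed. That call of Smad7 was lost without PBS 1 h replicate 2 (adjusted p = 0.0531). Id1 averaged a change of 0.27, Id2 of 0.27 and Smad6 of 0.25, with adjusted p-values of 0.207, 0.234 and 0.179.

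Comparing 3 h with 1 h, 1 of the 10 genes passed in PBS, where 0.450% of all genes did, and 1 with hepcidin, where 5.05% did; it was Id3 in each case. The effect at 3 h minus that at 1 h was past the threshold in 0 of the 10 genes, with 0 at an unadjusted p under 0.05 in limma, and in 1.03% of all genes. The other 9 genes differed between the times by log2 changes with intervals inside -0.44 to 0.37 in PBS and -0.62 to 0.41 with hepcidin.

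Of the other genes of the pathway, grouped by role, 77 were measured outside the interleukin-6 route. At 3 h 2 rose and 3 fell, and at 1 h 1 rose and 0 fell, with 12 and 2 at an unadjusted p under 0.05 in limma. The 5 genes that passed at 3 h are 6.49% of the 77, beside 5.33% of all genes, and the 1 at 1 h is 1.30%, beside 0.559%. At an unadjusted p under 0.05 were 15.6% of the 77 and 16.9% of all genes at 3 h, and 2.60% and 6.82% at 1 h. The ligand genes gave no calls: 0 of 16 BMP and activin genes and 0 of 3 TGF-beta genes passed at either time, with 0 at an unadjusted p under 0.05. Their log2 changes ran from -0.20 to 0.20 at 3 h and from -0.13 to 0.30 at 1 h. Most of these ligand genes lay under the background level of 4.72, where a change could go undetected. By their means, Tgfb1, Bmp7 and Inhbb lay above it. Also without a call at either time were 12 co-receptors and iron sensors, 4 other SMAD genes, 11 extracellular antagonists and 7 other BMP targets. At 3 h these lists had 2, 1, 0 and 0 genes at an unadjusted p under 0.05. At 1 h they had 0, 0, 0 and 0. Several of the antagonists and targets, such as Nog and Msx2, also lay under the background level.

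Among 14 intracellular regulators of SMAD signalling, Skil rose at both times. Skil encodes SnoN, a corepressor that binds SMAD complexes and is itself a known TGF-beta target. Its log2 values were 7.94, 8.13 and 8.11 with hepcidin at 3 h, against 6.79, 6.86 and 7.03 with PBS at 3 h. At 1 h they were 8.23, 8.10 and 8.15 with hepcidin, against 6.73, 6.98 and 7.12 with PBS. The groups were far apart at each time, by 1.17 on the log2 scale at 3 h (SE 0.10, 2.24-fold, adjusted p = 1.75e-05 in limma) and 1.22 at 1 h (SE 0.10, 2.32-fold, adjusted p = 2.92e-05). Its relative Ski, another SMAD corepressor, fell by 0.47 at 3 h (SE 0.08, adjusted p = 0.00316), with 7.71 ± 0.09 with hepcidin and 8.18 ± 0.05 with PBS. At 1 h Ski averaged 8.31 ± 0.07 with hepcidin and 8.28 ± 0.12 with PBS, a difference of 0.03. The effect on Ski at 3 h minus that at 1 h was -0.50 (adjusted p = 0.0638), and it passed under a trended and robust prior (0.0228), among genes above the median mean (0.0255), with array weights (0.0301) and without PBS 1 h replicate 3 (0.0473). Tob1, an antiproliferative protein that restrains BMP-activated SMADs, fell by 0.83 at 3 h (SE 0.08, adjusted p = 5.12e-05), with 6.70 ± 0.15 with hepcidin and 7.53 ± 0.08 with PBS. At 1 h Tob1 averaged 7.11 ± 0.01 with hepcidin and 7.21 ± 0.08 with PBS, a difference of -0.10 (adjusted p = 0.907).

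Among 10 other receptors of the family, 1 rose and 1 fell at 3 h, where 2.80% and 2.53% of all genes did. At 1 h 0 passed, with 1 at an unadjusted p under 0.05 in limma, beside 0.559% and 6.82% of all genes. Acvr2a, a type II receptor that BMPs share with activins, averaged 7.37 ± 0.07 with hepcidin and 6.94 ± 0.05 with PBS at 3 h, a rise of 0.43 (SE 0.10, adjusted p = 0.0186 in limma). At 1 h it averaged 7.36 ± 0.14 with hepcidin and 6.95 ± 0.17 with PBS, a difference of 0.42 (adjusted p = 0.120). Its call at 3 h was lost when replicate 2 or 3 of hepcidin, or replicate 1 or 3 of PBS, was left out at that time, at adjusted p-values up to 0.0762, and at 1 h it passed without PBS 1 h replicate 3 (0.0473). Tgfbr1, the type I TGF-beta receptor, averaged 8.32 ± 0.07 with hepcidin and 8.88 ± 0.18 with PBS at 3 h, a fall of 0.56 (SE 0.09, adjusted p = 0.00210). At 1 h it averaged 8.90 ± 0.05 with hepcidin and 8.89 ± 0.08 with PBS. The hepcidin effect on Tgfbr1 at 3 h minus that at 1 h was -0.57 (adjusted p = 0.0571), and it passed under a trended and robust prior (0.0154) and among genes above the median mean (0.0250).

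**Figure D3:**
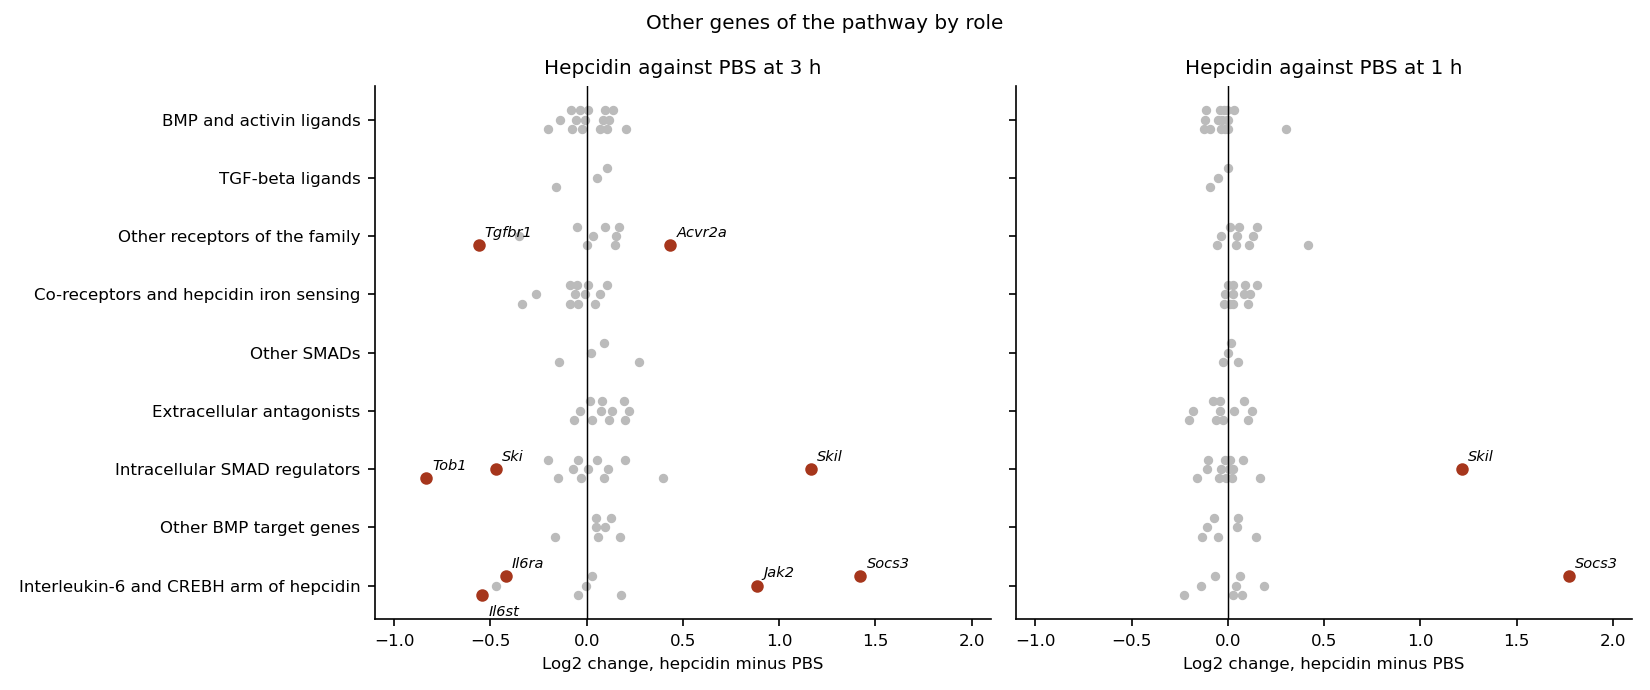
Log2 change, hepcidin minus PBS, of the 86 other pathway genes in rows by role, at 3 h (left) and 1 h (right); each point is a gene, and red points with names passed an adjusted p of 0.05 over all genes in limma. Skil and Socs3 stand out to the right at both times, and the ligand rows stay between -0.20 and 0.30. Most ligand genes lay under the background level.

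On the interleukin-6 route to Hamp, 2 of 9 genes rose and 2 fell at 3 h, where 2.80% and 2.53% of all genes did. At 1 h 1 rose and 0 fell, where 0.527% and 0.0324% of all genes did. The cytokine gene Il6 lay under the background level on all 12 arrays, with 3.22 ± 0.13 with hepcidin and 3.04 ± 0.13 with PBS at 3 h, and 3.08 ± 0.02 with hepcidin and 3.05 ± 0.09 with PBS at 1 h. Stat3, which encodes the transducer that binds the Hamp promoter, differed by -0.01 at 3 h and 0.07 at 1 h (adjusted p = 0.980 and 0.919 in limma). Socs3, a STAT3 feedback gene, rose by 1.42 at 3 h and 1.77 at 1 h (SE 0.13 each, adjusted p = 2.91e-05 and 1.25e-05). At 3 h the kinase gene Jak2 rose by 0.89 (adjusted p = 1.90e-05), the receptor gene Il6ra fell by 0.42 (adjusted p = 0.00519) and the shared receptor gene Il6st fell by 0.54 (adjusted p = 4.85e-04). At 1 h the differences of these 3 were 0.19, -0.07 and 0.06, with adjusted p-values of 0.687, 0.940 and 0.940. Il6st averaged 9.70 with hepcidin and 10.24 with PBS at 3 h, and 10.00 with hepcidin and 9.93 with PBS at 1 h. Its mean was thus higher at 3 h than at 1 h in PBS and lower with hepcidin.

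The profile of Id3 was closest to that of Gadd45b, a stress gene, at a root-mean-square difference of 0.30 on the log2 scale. The difference was taken over the 12 arrays after each gene was centred on its mean. Next came Ifrd1, a transcriptional coregulator gene, and Rasgef1b, a Ras-family exchange factor gene, both at 0.32. Gadd45b averaged 9.15 with hepcidin and 8.46 with PBS at 3 h, and 9.66 with hepcidin and 8.66 with PBS at 1 h. Ifrd1 averaged 9.07 with hepcidin and 8.63 with PBS at 3 h, and 9.74 with hepcidin and 9.46 with PBS at 1 h. Rasgef1b averaged 9.89 with hepcidin and 8.69 with PBS at 3 h, and 10.22 with hepcidin and 9.08 with PBS at 1 h. All 3 had their highest mean in the hepcidin 1 h group and their lowest in the PBS 3 h group, as Id3 did. They were picked for likeness to Id3 over these same arrays, so this follows largely from the choice. Smad6, the other gene whose group means spanned at least 0.5, was closest to Spata2 (0.11), Ampd2 (0.12) and Pnrc1 (0.13). With hepcidin at 3 h and 1 h, Spata2 differed from PBS by 0.09 and 0.24, Ampd2 by 0.26 and 0.16, and Pnrc1 by 0.10 and 0.43. Likeness here describes 12 arrays in 4 groups, and Smad6 lay under the background level on all of them.

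**Figure D4:**
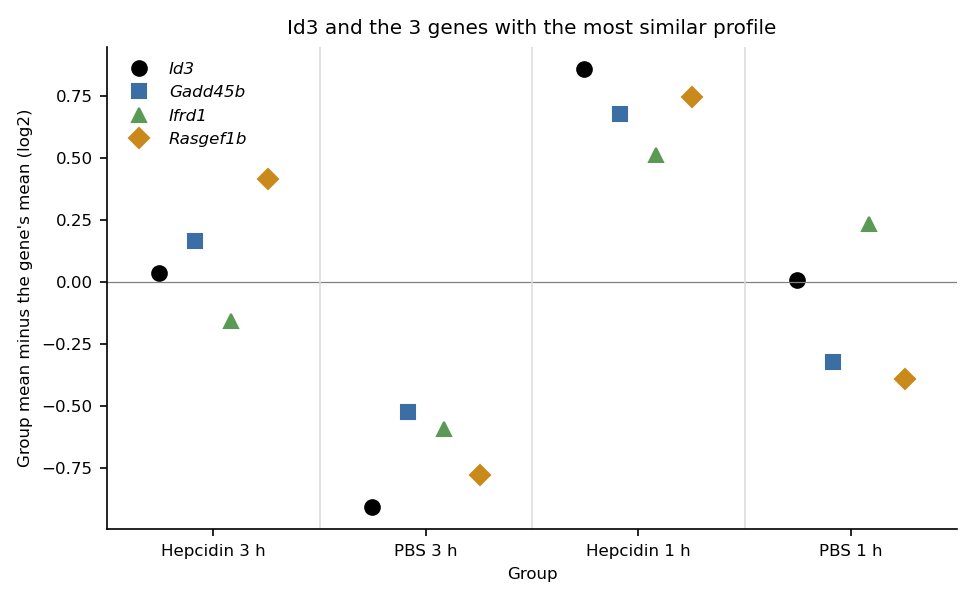
Group means of Id3 and of the 3 genes with the smallest root-mean-square difference to it, each minus the gene's mean over the groups, on the log2 scale, with hepcidin and PBS at 3 h and then at 1 h from left to right. All 4 genes are lowest in the PBS 3 h group and highest in the hepcidin 1 h group.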

How the data were processed

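Total RNA of 12 samples was labelled as biotinylated cDNA and hybridised to 1 Affymetrix array each, as the labels' protocols state. The deposited table gives 1 value per probe set and array, read as log2 because RMA returns that scale and the range fits it. RMA and Partek are named, without versions, per the submitters' processing notes, and no label writes the log base or a genome build. The 754 probe sets of 25429 without a symbol entered 1 alternative. Differences were fitted to all 24675 named genes with limma 3.58.1 (R 4.3.3; eBayes after contrasts.fit) as 4 group means with 8 residual and 4.11 prior degrees of freedom, without a filter. Each comparison's p-values were Benjamini-Hochberg adjusted over all genes, with an adjusted p under 0.05 the threshold for passing, rising or falling. Named are the 10 members, pathway genes past the threshold with hepcidin, 3 genes of the interleukin-6 route, the 2 brightest markers per list, and the 3 nearest profiles. The members and lists were chosen with earlier results of these data known. RMA signal near background understates changes. Alternatives were a replicate block, other moderation, filtering, scaling and weights, only the groups compared, all probe sets, and leaving out each array. For the pathway genes outside the 10 and the average effect they were added after the data were seen. The fit was tested on simulated data with independent noise and changes only in genes above the median mean. That test does not cover dim genes or paired arrays.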

Additional observations from a re-analysis of the deposited data

Results flagged for a closer look

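The hepcidin effect at 3 h differed from that at 1 h in 3 of the genes described, by limma's test of the difference over all genes. For Tob1 the effect at 3 h minus that at 1 h was -0.73 on the log2 scale (SE 0.12, adjusted p = 0.0108). Il6st gave -0.61 (SE 0.10, adjusted p = 0.0125). Jak2 gave 0.70 (SE 0.11, adjusted p = 0.0106). These 3 kept the call whichever array was left out. For Ski (-0.50, adjusted p = 0.0638) and Tgfbr1 (-0.57, adjusted p = 0.0571) the difference missed the threshold here and passed under some other settings, a trended and robust prior among them. None of the 10 genes of the hepcidin and BMP-SMAD set passed this test, and groups of 3 arrays were too small to look for single deviating arrays.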

How the results depend on the processing

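Over the 6 comparisons, values of the 10 genes were recomputed 1216 times under other settings: 1195 kept their side of the threshold, 19 lost a call, 2 gained one and 0 reversed. The count of the 10 genes past the threshold at 1 h was 0 without moderation and 0 with only the groups compared. At 3 h it was 1 among genes above the median mean, where Smad7 is left out, and 1 with only the groups compared. In PBS over time it was 0 without moderation and 0 with only the groups compared, and for the average effect it was 1 above the median mean. With 1 array left out these counts ran from 1 to 2 at 3 h, 0 to 1 at 1 h, 0 to 1 in PBS over time and 1 to 2 for the average. Over all genes the count at 3 h was 1316. It ran from 837 to 1287 with 1 array left out. Over the other settings it ran from 805, in a fit of only those groups, to 1727. For PBS over time it was 111, with 319 under a trended and robust prior, 333 above the median mean, 64 after median centring, 285 with array weights, 7 with only those groups and 23 to 126 with 1 array left out. For the difference of the effects it was 254, and 141 to 234 with 1 array left out. Over the other settings it ran from 181 to 433, with 433 under a trended and robust prior and 412 above the median mean. For hepcidin over time it was 1246, and 721 to 1178 with 1 array left out. Over the other settings it ran from 616, with only those groups, to 1675. The cause was not tested where a change was not one of fewer genes or arrays.

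Same-numbered arrays of different groups deviated together with r from -0.01 to 0.25 (median 0.11), over 0.1 in 9 of 18 pairs. Arrays with other numbers had a median r of -0.04, over 0.1 in 1 of 36 pairs. An array correlated best with its own number in 28 of 36 cases. The numbers are thus a hint of a pairing, but no label states that they pair arrays, so the main fit does not use them. With the replicate block the count for PBS over time was 240, and Id2 passed at 3 h (adjusted p = 0.0327) and in the average (0.0126). No other call of the 10 genes changed with it.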
